A study of Mus musculus with 48 samples.

Results

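Interferon response genes are the transcripts that a cell makes once an interferon has bound its receptor, and 36 of them, listed by symbol, are described here out of 30055 gene symbols in the table. All 36 were present and all 36 passed the filter on low counts in both tissues, although Rtp4 was listed at 0 in 3 liver libraries. The list holds 4 sensors of foreign nucleic acid, 3 transcription factors, 5 genes of the Oas family, 3 of the Ifit family, 10 other antiviral effectors, the ISG15 pair Isg15 and Usp18, 3 genes of the PARP9 complex and 6 interferon-inducible GTPases. A second list of 106 other genes of the pathway, of which 103 were found, gives the surroundings of these 36.

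The libraries came from C57BL6/J mice, male and female, that were given, from 8 weeks of age, a regular chow (RD) or a diet with 45% of its calories as fat (HFD). One cohort was killed after 2 weeks on the diet and another after 12 weeks, so weeks on the diet, age and cohort cannot be told apart. Liver and visceral white adipose tissue were each sequenced as 8 groups of 3 libraries, set by sex, diet and time, which gives 16 groups and 48 libraries, and the study asked how the diet alters sex differences. Each library is a numbered sample, and the labels do not say that a number found in both tissues or on both diets is 1 animal, so p-values measure the spread between these samples.

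Type I interferons act through a receptor that activates STAT2, which works with IRF9 in a factor that binds the interferon-stimulated response element in promoters. Interferon gamma acts through a separate receptor and the gamma-activated sequence, and it is a strong inducer of the interferon-inducible GTPases. In liver and fat these genes are carried both by parenchymal cells and by macrophages, lymphocytes and endothelium, and C57BL/6 mice carry a defective Mx1 gene.

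The promoters of 6 members are shown as examples, from groups whose levels parted between libraries. These are Isg15, Ifit1 and Oas1a as antiviral effectors, and Gbp2, Gbp3 and Igtp as GTPases. All 6 held the core of the response element. Oasl1, Oasl2 and Ifi47, of the same groups, and another Gbp3 window did not hold it and are not shown. Each line gives the 120 bases before a RefSeq start site on GRCm38.p6, read 5′ to 3′ along the gene, and capitals mark matches to GAAANNGAAA, the core of the response element, on either strand (on the other strand the match reads TTTCNNTTTC).

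Isg15, chr4:156200819-156200938, minus strand: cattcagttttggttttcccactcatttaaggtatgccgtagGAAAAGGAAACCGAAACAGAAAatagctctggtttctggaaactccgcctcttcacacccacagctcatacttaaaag

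Ifit1, chr19:34640769-34640888, plus strand: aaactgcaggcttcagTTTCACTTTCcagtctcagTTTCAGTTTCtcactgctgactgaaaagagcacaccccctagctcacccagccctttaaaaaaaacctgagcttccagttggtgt

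Oas1a, chr5:120907526-120907645, minus strand: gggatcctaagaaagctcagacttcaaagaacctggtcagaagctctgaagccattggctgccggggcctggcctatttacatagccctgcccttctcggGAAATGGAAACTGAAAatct

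Gbp2, chr3:142620543-142620662, plus strand: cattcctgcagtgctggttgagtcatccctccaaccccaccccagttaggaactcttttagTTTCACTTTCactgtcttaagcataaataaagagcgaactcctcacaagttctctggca

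Gbp3, chr3:142559924-142560043, plus strand: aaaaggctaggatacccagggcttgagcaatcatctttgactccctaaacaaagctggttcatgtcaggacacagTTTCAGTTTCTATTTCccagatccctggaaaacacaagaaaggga

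Igtp, chr11:58199436-58199555, plus strand: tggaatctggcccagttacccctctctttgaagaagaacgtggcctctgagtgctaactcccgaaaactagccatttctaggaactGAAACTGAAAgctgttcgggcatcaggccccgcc

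Isg15 held 3 overlapping matches and Ifit1, Oas1a and Gbp3 held 2 each, while Gbp2 and Igtp held 1. Over windows of 300 bases (250 before and 50 after the start), 16 of the 27 members with a RefSeq window held the motif, or 59.3%, beside 3.99% of all 27025 symbols in that table. The gamma-activated core TTCNNNGAA, which reads the same on both strands, was found in 6 of the 27, or 22.2%, beside 9.55% of all symbols. Among the GTPases 5 of 6 held the response element and 2 of 6 the gamma-activated core, and these 2 were Gbp7 and Igtp. Ifi44, Oasl2, Irf7 and Ifi47 held neither motif in this window. A match is a description of letters and not a site shown to be bound.

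Liver libraries summed to between 50.89 and 80.06 M expected counts (median 69.9 M) and adipose libraries to between 44.7 and 105.4 M (median 63.2 M). Alb, the albumin made by hepatocytes, ran from 37870 to 106900 CPM (expected counts scaled to library size) in liver, and Adipoq, the adipocyte hormone adiponectin, from 879.8 to 4012 CPM in fat. No 2 libraries of a group were alike to within counting noise. RD female 8 at 12 weeks stood above its group in both tissues, and HFD female 1 at 2 weeks stood above its group in fat, so results that rest on them are given with and without them. Crisp1, a secreted protein of the epididymis, lay between 3020 and 5450 CPM in the adipose libraries of all 3 RD males at 12 weeks, which thus held epididymal transcripts, and between 1.14 and 6.3 CPM in those of the HFD males. In the 2-week adipose libraries it reached 970 CPM in RD male 6, 2680 CPM in RD male 8 and 6500 CPM in HFD male 13.

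Levels between genes are compared per length, as CPM per kb of exon. In liver Bst2, a membrane protein that tethers budding virus, was the highest member with a median of 105 CPM per kb, followed by Igtp at 20.1 and Parp9 at 12.4, and Rtp4, Oas3 and Mx1 were the lowest at 0.17, 0.57 and 0.631. In fat Bst2 was again the highest, at 50.2 CPM per kb, followed by Gbp2 at 35.3 and Ifi35 at 18.8, and Oas3, Mx2 and Rtp4 were the lowest at 0.379, 0.816 and 0.829. Near-identical copies share reads (Oas1a with Oas1g, the Gbp cluster on chromosome 3, the Ifit cluster on chromosome 19, Trim30a with its neighbours), so the level of 1 such gene is less certain than that of its cluster.

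The mean log2 CPM of the 36 members describes each library with no test. In liver at 12 weeks it was 3.87, 4.1 and 4.88 in RD females, 3.09, 3.31 and 3.35 in RD males, 4.05, 3.9 and 3.82 in HFD females, and 3.3, 3.41 and 3.75 in HFD males. Every female library lay above every male library on each diet, and the highest of them was RD female 8. In fat at 12 weeks it was 4.2, 4.43 and 5.33 in RD females, 3.79, 3.39 and 3.61 in RD males, 4.36, 4.87 and 4.17 in HFD females, and 4.78, 4.33 and 3.98 in HFD males. The sexes did not overlap on RD and overlapped on HFD, with the RD males lowest.

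**Figure D1:**
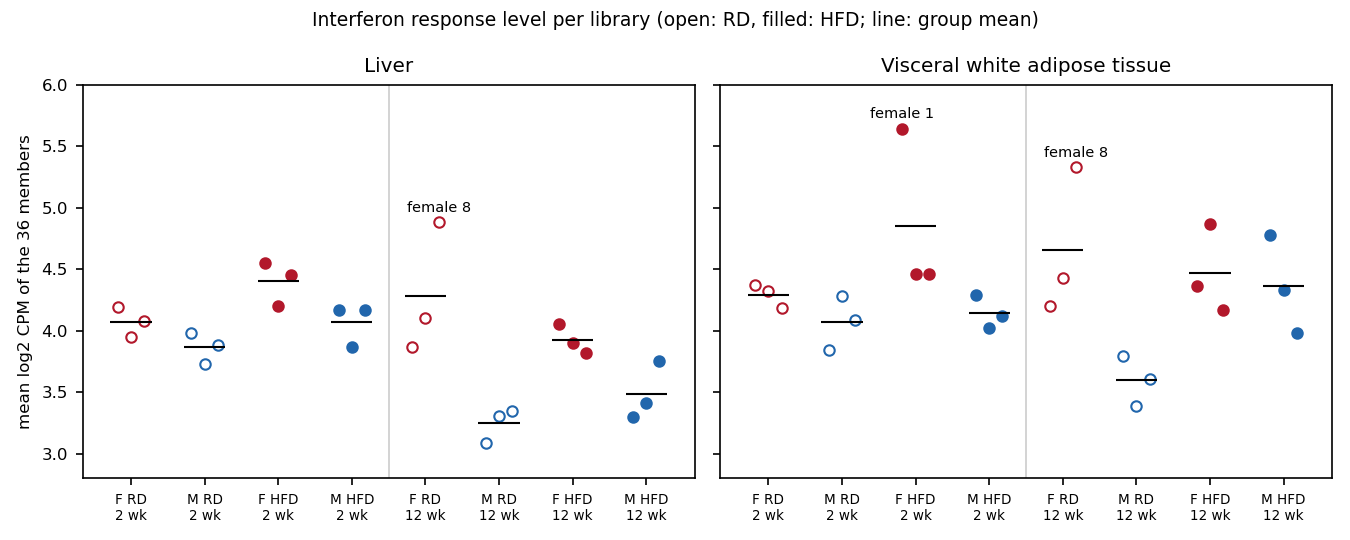
Mean log2 CPM of the 36 interferon response genes in each library (vertical axis) for the 8 groups of liver and of visceral white adipose tissue (red for females, blue for males, open for RD, filled for HFD, line for the group mean). RD female 8 at 12 weeks reached 4.88 in liver and 5.33 in fat, and HFD female 1 at 2 weeks reached 5.64 in fat.

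Of the sex comparisons in liver, that on RD at 12 weeks gave the most called members. There 22 of the 36 were higher in females and none was lower, where 5.63% of all 15897 genes tested were higher and 3.18% lower. In bulk tissue, more cells of a type and more RNA per cell cannot be told apart, here or below. All 36 had a positive log2 fold change (from 0.16 to 2.68), with a median of 1.03 beside 0.027 over all genes. The GTPases led with 5 of 6 higher and a median of 2.23, the Ifit family followed with 3 of 3 and 1.32, then the ISG15 pair with 2 of 2 and 1.29, and the Oas family with 4 of 5 and 1.12. Of the sensors 3 of 4 were higher (Ddx58, Dhx58 and Zbp1), and of the transcription factors 1 of 3 (Irf7).

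Ifi44, an interferon-induced antiviral protein (chromosome 3, 151730922 to 151749960 on GRCm38), was 7.79, 11.8 and 19.9 CPM in the livers of RD females at 12 weeks and 3.09, 3.82 and 3.24 CPM in RD males. All 3 females lay above all 3 males, and the log2 fold change was 1.96 ± 0.27 (approximate SE, edgeR quasi-likelihood test, Benjamini-Hochberg adjusted p = 5e-05). Gbp3, a guanylate-binding protein (chromosome 3, 142560026 to 142573209), was 13.1, 19.3 and 71.6 CPM in the females and 6.1, 5.28 and 4.91 CPM in the males. The groups did not overlap, and RD female 8 was the high value (2.68 ± 0.41, adjusted p = 0.00033). Oasl2, an Oas-like antiviral protein, was 8.83, 9.65 and 19.3 CPM in the females and 4.57, 4.89 and 5.03 CPM in the males, again without overlap (1.38 ± 0.23, adjusted p = 0.00048). Xaf1, a pro-apoptotic factor, was higher by 1.24 ± 0.21 (adjusted p = 0.00067).

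Igtp, an immunity-related GTPase of pathogen vacuoles (chromosome 11, 58199556 to 58207591), was 48.5, 56.8 and 342 CPM in the females and 21.7, 22.3 and 27.3 CPM in the males. Gbp2 was 12, 10.9 and 50.2 CPM in the females and 4.83, 4.08 and 4.95 CPM in the males. For both GTPases the groups did not overlap and 1 female, RD female 8, carried several times the level of the other females (log2 fold changes 2.65 ± 0.51, adjusted p = 0.0029, and 2.4 ± 0.43, adjusted p = 0.0014). Isg15, a ubiquitin-like modifier, was 6.73, 11.2 and 15.2 CPM in the females and 5.58, 5.07 and 5.36 CPM in the males, and its rise of 1.05 ± 0.3 was among the last called (adjusted p = 0.03). Irf7, the transcription factor that amplifies type I interferon production, was 28.9, 36.5 and 68.9 CPM against 23, 28.7 and 26.2 CPM, and here female 5 lay just above the highest male (0.79 ± 0.23, adjusted p = 0.036).

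Without RD female 8 the count was 16 of 36 with a median of 0.73, and Gbp3 was still higher, by 1.58 (adjusted p = 5.2e-05), as was Ifi44, by 1.53 (adjusted p = 0.00032). Leaving out a library can change calls over all genes. The share of all genes called in fits without 1 library is not reported here or below. Fitted on only these 6 libraries the count was 12 (9.9% of all genes called), and Gbp3 lost its call (adjusted p = 0.07). Among the other pathway genes 38 of 92 were higher and 2 lower, led by Gbp9 (1.6 ± 0.21, adjusted p = 3.3e-05), Slfn8 (1.45 ± 0.25, adjusted p = 0.00081), Slfn5 (0.7 ± 0.13, adjusted p = 0.0013) and Sp100 (0.89 ± 0.17, adjusted p = 0.0017). The pair that was lower was Irf2, a repressor of interferon genes, and Socs3, a brake on cytokine signalling.

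Cell markers moved in the same comparison. Of 6 macrophage markers 3 were higher in the female livers (Csf1r, Emr1 and Mertk), as were 2 of 5 Kupffer cell markers, 3 of 5 of NK cells and 3 of 5 of B cells. The summed macrophage level was 229 to 369 CPM in RD females and 151 to 169 CPM in RD males at 12 weeks, and that of NK cells 3.76 to 8.95 CPM against 1.65 to 2.22 CPM. None of 6 T cell and none of 4 endothelial markers was called. The part of these cells in the members' difference was not tested.

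On HFD at 12 weeks 9 of the 36 members were higher in female livers and none lower, where 9.93% of all genes were higher and 7.4% lower. The median was 0.38 beside 0.009 over all genes. The Oas family gave 4 of the 9 (Oas1a, Oas2, Oas3 and Oasl2), and the others were Ifit2, Gbp3, Trim30a, Ddx58 and Ifi44. Oas3, which makes the activator of RNase L, was 4.55, 3.87 and 2.38 CPM in HFD females and 1.53, 1.07 and 1.56 CPM in HFD males, without overlap (1.38 ± 0.31, adjusted p = 0.0041). Oasl2 was 9.83, 10.6 and 7.88 CPM against 4.81, 4.99 and 4.9 CPM, so that the males lay close together well below the females (0.94 ± 0.23, adjusted p = 0.0065).

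Ifit2, which binds foreign RNA, was 7.32, 6.88 and 5.72 CPM in these females and 3.01, 4 and 4.28 CPM in the males (0.82 ± 0.22, adjusted p = 0.013). Gbp3 was 24, 14.6 and 16.9 CPM against 6.96, 6.36 and 7.13 CPM (1.44 ± 0.4, adjusted p = 0.017). For both the sexes did not overlap. Isg15 (8.64, 6.83 and 7.09 CPM against 4.87, 5.75 and 9.1 CPM) and Igtp (54.4, 45.9 and 50.8 CPM against 28.2, 24 and 33.5 CPM) were not called, and Isg15 overlapped.

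The count fell to 2 without HFD female 3, where Gbp3 (1.21, adjusted p = 0.073) and Ifit2 (0.75, adjusted p = 0.051) lost their calls, and to 5 without HFD male 3, where Gbp3 also lost its call (adjusted p = 0.058). In the wider pathway 15 of 92 were higher and 2 lower, led by Slfn5 (1.07 ± 0.13, adjusted p = 7.1e-06), Gbp9 (1.28 ± 0.21), Ifi204 (1 ± 0.19) and Sp100 (0.84 ± 0.17). Of the macrophage markers 5 of 6 were higher in females, with summed levels of 249 to 316 CPM against 58 to 91.3 CPM, along with 4 of 5 Kupffer cell, 4 of 5 NK cell, 3 of 5 B cell and 3 of 4 endothelial markers, while 1 of 6 T cell markers was lower. Their part in the members' difference was not tested.

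At 2 weeks few members differed by sex in liver. On RD 3 of 36 were higher in females and none lower, where 5.37% of all genes were higher and 4.45% lower: Ifi44 (0.93 ± 0.26, adjusted p = 0.026), Ddx58, the RNA sensor RIG-I (0.49 ± 0.14, adjusted p = 0.027), and Oas2 (0.74 ± 0.22, adjusted p = 0.034). Ifi44 was 11.3, 9.13 and 12 CPM in RD females and 6.67, 5.25 and 5.1 CPM in RD males, without overlap. Ddx58 was 45.9, 39.7 and 37 CPM against 33.1, 27.2 and 26.8 CPM, also without overlap. No member was called without female 1, male 7 or male 8, and 1 without female 4. With no filter on low counts 1 was called (6.03% of all genes), by DESeq2 5 (13.9% of all genes), and with only these 6 libraries in the fit 11, 9 higher and 2 lower (20.1% of all genes).

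On HFD at 2 weeks 2 of 36 were higher in female livers (6.33% of all genes) and 1 was lower (6.06% of all genes). Oas2 was 11.2, 12.4 and 10.6 CPM in females and 5.78, 7.9 and 3.67 CPM in males (0.98 ± 0.22, adjusted p = 0.005). Gbp3 was 28, 26.8 and 30.9 CPM against 13.9, 8.55 and 10 CPM (1.4 ± 0.39, adjusted p = 0.024). Ifi47, an immunity-related GTPase, went the other way, with 23.3, 19 and 21.9 CPM in females and 39, 43.9 and 51.6 CPM in males (-1.07 ± 0.3, adjusted p = 0.025). None of these 3 overlapped between the sexes. The count was 1 without HFD male 13 or 14, and Ifi47 also lost its call without any 1 of the 3 females (adjusted p = 0.05 to 0.083) and Gbp3 without HFD female 5 (adjusted p = 0.055). DESeq2 called 5 (16.2% of all genes), and in a fit of only these groups Oas2 was not called (adjusted p = 0.09).

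Elsewhere in the pathway at 2 weeks 11 of 92 were higher and 1 lower in female livers on RD, led by Nlrc5, the transactivator of MHC class I genes (0.97 ± 0.26, adjusted p = 0.02). On HFD 7 were higher and 3 lower, again led by Nlrc5 (1.16 ± 0.26, adjusted p = 0.0051). Myd88, the Toll-like receptor adaptor, was lower in females on both diets (-0.68 ± 0.19 and -0.62 ± 0.19, adjusted p = 0.025 and 0.032). On RD 3 of 5 B cell, 2 of 5 NK cell, 1 of 6 T cell and 1 of 6 macrophage markers were higher in females and none of 5 for Kupffer cells, and on HFD 1 of 5 B cell and 1 of 6 T cell markers were. Their part in the members' differences was not tested.

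Several members kept 1 order across the 4 liver comparisons of sex. Oas2 was called in all 4: at 12 weeks it was 8.25, 8 and 11.8 CPM in RD females and 3.9, 4.2 and 4.95 CPM in RD males, and 9.29, 8.2 and 7.77 CPM in HFD females and 5.31, 5.78 and 4.99 CPM in HFD males. At 2 weeks on RD it was 10.8, 8.59 and 10.6 CPM against 7.21, 4.76 and 5.94 CPM. In none of the 4 did a male reach the lowest female. Ifi44, Ddx58 and Gbp3 were each called in 3 of the 4. How many of all genes were called, or did not overlap, in as many comparisons was not counted.

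Gbp3 was the exception on RD at 2 weeks, where the groups did not overlap (21.4, 18.5 and 19.6 CPM against 8.96, 9.14 and 8.62 CPM) but the gene was not called (1.16 ± 0.39, adjusted p = 0.068). Ifi44 was not called on HFD at 2 weeks, with 13.9, 12.9 and 12.5 CPM in females and 9.5, 6.28 and 8.59 CPM in males, although these did not overlap (0.69 ± 0.26, adjusted p = 0.082). Ddx58 overlapped there (48.8, 38.8 and 35.7 CPM against 31.1, 32.1 and 37.8 CPM), and at 12 weeks was 38.2, 43.8 and 36.3 CPM against 24.9, 25.2 and 24.8 CPM on RD and 42.8, 32.2 and 40.8 CPM against 30.1, 29.6 and 26.9 CPM on HFD.

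Averaged over the 4 comparisons, 19 of 36 members were higher in female livers and none lower, where 22% of all genes were higher and 17.2% lower. The median was 0.46 beside 0.036 over all genes. Ifi44 (1.09 ± 0.13, adjusted p = 1.8e-06), Gbp3 (1.67 ± 0.2, adjusted p = 2.7e-06), Oas2 (0.87 ± 0.11, adjusted p = 3.3e-06) and Oasl2 (0.81 ± 0.11, adjusted p = 1.2e-05) had the smallest p. The wider pathway gave 47 of 92 higher and 5 lower. In the same comparison 5 of 5 Kupffer cell, 5 of 6 macrophage, 4 of 5 NK cell, 4 of 5 B cell and 3 of 4 endothelial markers were higher in females, and 3 of 6 T cell markers were higher and 1 lower; their part was not tested. The members' count stayed between 19 and 22 with any 1 of the 24 libraries left out.

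The female over male log2 fold change on RD was higher at 12 than at 2 weeks in all 36 liver members (median difference 0.83), 14 of which were negative at 2 weeks, but the test of that difference called none (edgeR quasi-likelihood, 21 at an unadjusted p under 0.05, 0% of all genes called). Here and below, the share of all genes called uses the adjusted p and is no background for counts at an unadjusted p. DESeq2 called 1 member and 0.327% of all genes. Usp18, which removes ISG15 and shuts the receptor down, had the smallest p (1.54 ± 0.4, adjusted p = 0.35), followed by Ifi47 (1.64 ± 0.43, adjusted p = 0.36). Without RD female 8 at 12 weeks the median difference was 0.44 and 6 had an unadjusted p under 0.05.

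**Figure D2:**
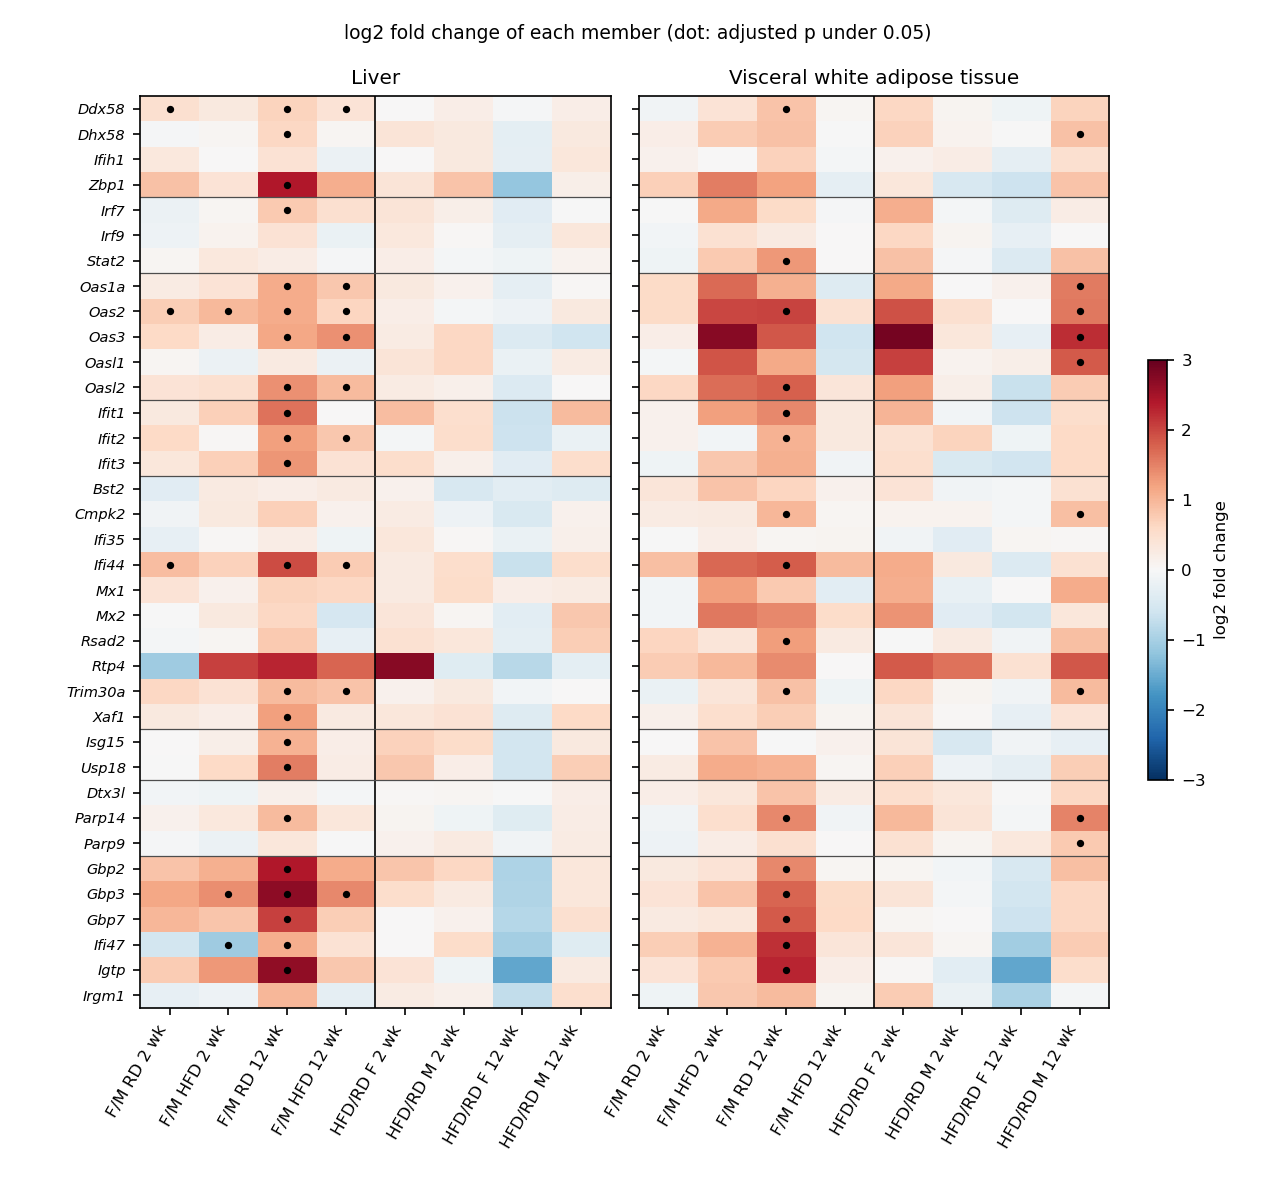
Log2 fold change of each of the 36 members (rows, grouped by role) in the 4 sex comparisons (female over male) and the 4 diet comparisons (HFD over RD) of each tissue (red for higher, blue for lower, dot for an adjusted p under 0.05). In liver the dots lie in the sex columns, with 22 on RD at 12 weeks, and in fat they lie in the RD sex column and the male HFD column at 12 weeks, with 16 and 9.

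The diet gave no called member in liver in any of its 4 comparisons, by edgeR or DESeq2. At 2 weeks in females 34 of 36 values were positive (median 0.28, 6 at an unadjusted p under 0.05, 0.252% of all genes called), with Usp18 at 0.81 ± 0.28 (adjusted p = 0.32) and Ifit1 at 0.92 ± 0.33 (adjusted p = 0.35). At 2 weeks in males the median was 0.21 with 7 at an unadjusted p under 0.05 (0.34% of all genes called), and Oasl1 (0.62 ± 0.22, adjusted p = 0.27) and Ifit2 (0.52 ± 0.21, adjusted p = 0.36) came first. At 12 weeks in males the median was 0.25 with 7 at an unadjusted p under 0.05 (1.12% of all genes called), led by Xaf1 (0.6 ± 0.21, adjusted p = 0.21) and Ifit1 (0.95 ± 0.34, adjusted p = 0.22).

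At 12 weeks in females 35 of 36 liver values were negative (median -0.36, 9 at an unadjusted p under 0.05, 0.00629% of all genes called), led by Ifi47 (-1.03 ± 0.3, adjusted p = 0.93) and Igtp (-1.57 ± 0.49, adjusted p = 1). Those values rest on RD female 8: without that library the median was -0.07 and none had an unadjusted p under 0.05. The sex by diet interaction at 12 weeks called no member (17 at an unadjusted p under 0.05, none by DESeq2, 0% of all genes called), with a median of -0.6, or -0.26 without RD female 8. Xaf1 (-0.98 ± 0.29) and Ifit1 (-1.6 ± 0.48) had the smallest p (both adjusted p = 0.39). At 2 weeks the interaction called none by either tool (0 at an unadjusted p under 0.05), with Bst2 at 0.61 ± 0.3 (adjusted p = 0.53) and Ifit2 at -0.57 ± 0.3 (adjusted p = 0.56). Averaged over the 4 diet comparisons, 6 members had an unadjusted p under 0.05 and none was called by edgeR or DESeq2 (1.34% of all genes called), or 1 by edgeR without RD female 8 at 12 weeks or without HFD female 5 at 2 weeks. Ifit1 (0.43 ± 0.17, adjusted p = 0.23) and Bst2 (-0.26 ± 0.1, adjusted p = 0.25) came first.

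Many liver members were lower in the 12-week cohort. Averaged over sex and diet, 21 of 36 were lower in the 12-week than in the 2-week cohort and none higher, where 7.87% of all genes were lower and 6.94% higher. The median was -0.34 beside 0.001 over all genes. Ifit2 fell by 0.78 (SE 0.11, adjusted p = 0.00013), Oas3 by 0.99 (SE 0.15, adjusted p = 0.00027), Isg15 by 0.79 (SE 0.15, adjusted p = 0.0013) and Mx1 by 0.68 (SE 0.13, adjusted p = 0.0015).

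The ISG15 pair and the Ifit family fell in full (2 of 2 and 3 of 3), and so did 4 of 5 of the Oas family, 7 of 10 other effectors and 3 of 4 sensors. Of the 6 GTPases 1 was called, Ifi47 (-0.71), and of the PARP9 complex none. Isg15 shows the shift: it was 13.4, 8.83 and 8.93 CPM in RD females and 10.2, 8.77 and 11.8 CPM in RD males at 2 weeks. On HFD it was 13.5, 12.5 and 24.1 CPM in females and 19.1, 10.9 and 14.5 CPM in males. Of the 6 males at 12 weeks 5 lay below the lowest of these, and the exception was HFD male 4. The HFD females at 12 weeks also lay below it, while the RD females at 12 weeks overlapped with the 2-week libraries.

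Irf7 was 43.3, 37.5 and 37.7 CPM in RD females and 45.5, 39.3 and 48.9 CPM in RD males at 2 weeks. On HFD the females had 43.7, 49.1 and 62.4 CPM and the males 58.6, 41.1 and 50.6 CPM. At 12 weeks on HFD it was 38.2, 37.6 and 31.5 CPM in females and 22.4, 24 and 31.1 CPM in males. The 12-week males were thus the low groups, and the change over the cohort was -0.52 ± 0.11 (adjusted p = 0.0044). Ifit2 was 12, 8.86 and 12.7 CPM and 7.77, 7.33 and 7.05 CPM in RD females and males at 2 weeks, against 9.01, 8.44 and 13 CPM and 4.68, 4.8 and 3.46 CPM at 12 weeks.

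In the rest of the pathway 25 of 92 fell and 4 rose. Slfn5 (-0.52 ± 0.06, adjusted p = 5.1e-05), Ifi27l2a (-0.98 ± 0.16, adjusted p = 0.00051) and Gbp9 (-0.62 ± 0.1, adjusted p = 0.00059) fell, and Mavs, the adaptor of the RNA sensors, rose (0.47 ± 0.07, adjusted p = 0.00021). Markers of plasmacytoid dendritic cells, the main source of type I interferon, fell in 5 of 6 tested (Siglech by 1.01, SE 0.14, adjusted p = 0.00016), but that list shares Bst2 with the members and Irf8 with the other pathway genes. Kupffer cell markers fell in 4 of 5 (median -0.77), macrophage markers in 3 of 6 (Csf1r by 0.72, SE 0.11) and endothelial markers in 3 of 4, and of 5 B cell markers 3 fell and 1 rose. T cell, NK cell and neutrophil markers fell in 1 each. The part of these cells was not tested, and with any 1 library left out the members' count ran from 16 to 23.

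**Figure D3:**
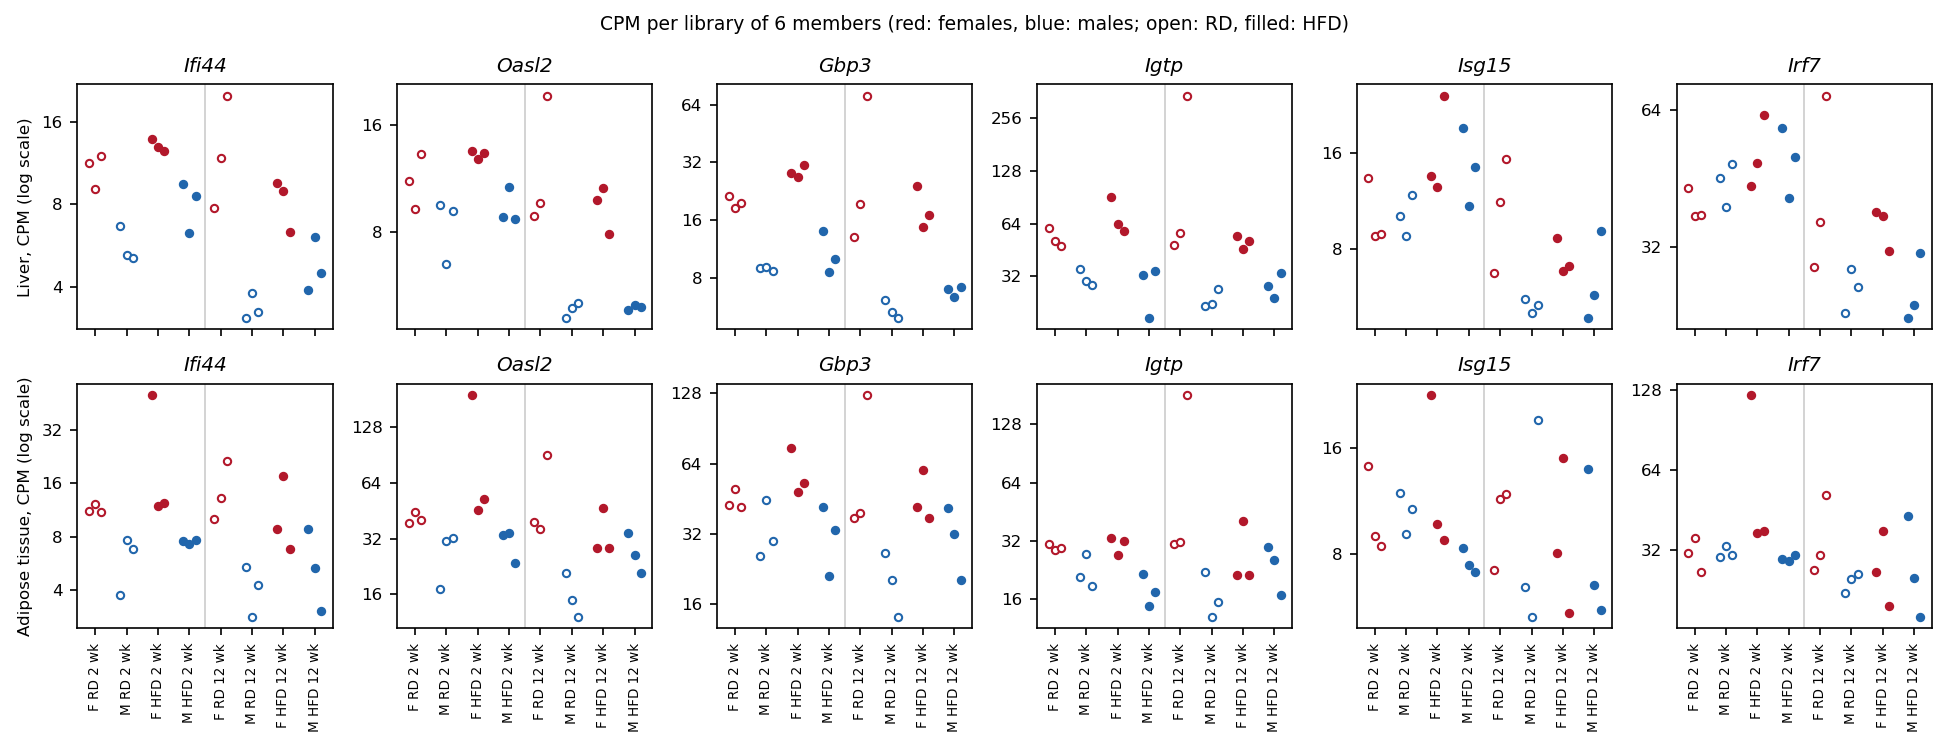
CPM of 6 members in each library of liver (upper row) and of visceral white adipose tissue (lower row), on log axes (red for females, blue for males, open for RD, filled for HFD). In liver Gbp3 was higher in every female than in every male of the same diet and time, and in fat 1 library, HFD female 1 at 2 weeks, reached 193 CPM of Oasl2 and 123 CPM of Irf7.

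In fat the members also differed by sex on RD at 12 weeks. There 16 of 36 were higher in females and none lower, where 4.45% of the 18325 genes tested were higher and 6.16% lower. The median was 1.07 beside -0.022 over all genes, and 35 of 36 values were positive. The GTPases again gave the most calls, 5 of 6 with a median of 1.79, beside 2 of 5 of the Oas family, also with a median of 1.79, and 2 of 3 of the Ifit family.

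Ifi47 was 19.1, 17.2 and 69.3 CPM in the fat of RD females at 12 weeks and 9.57, 5.65 and 7.88 CPM in RD males (2.19 ± 0.42, adjusted p = 0.0062). Gbp7 was 62.4, 62.3 and 203 CPM against 44.7, 25.5 and 20.9 CPM (1.85 ± 0.39, adjusted p = 0.01). In both the sexes did not overlap and RD female 8 was far above the others. Igtp (2.28 ± 0.5, adjusted p = 0.012) and Gbp3 (1.74 ± 0.41, adjusted p = 0.018) followed, and Igtp was 183 CPM in RD female 8 beside 31 and 31.4 CPM in the other RD females and 12.9 to 22 CPM in RD males.

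Gbp2 was 93.9, 80.3 and 309 CPM in these females and 74.4, 57 and 48.6 CPM in the males, without overlap (1.43 ± 0.38, adjusted p = 0.029). Oas2 was 24.3, 20 and 62.1 CPM against 13.1, 6.78 and 6.39 CPM, without overlap (2.02 ± 0.56, adjusted p = 0.033). Parp14, an ADP-ribosyltransferase, was 87.3, 70.8 and 175 CPM against 65.2, 33.6 and 23.7 CPM (1.44 ± 0.39, adjusted p = 0.031). Trim30a was 28.4, 33.1 and 58 CPM against 26.4, 16.6 and 21.5 CPM (0.89 ± 0.26, adjusted p = 0.041), and Cmpk2, a mitochondrial nucleotide kinase, 15.1, 20.6 and 20.8 CPM against 12.5, 9.74 and 5.94 CPM (1 ± 0.32, adjusted p = 0.049). None of these overlapped. Isg15 was not called, with 7.18, 11.5 and 11.8 CPM against 6.4, 5.26 and 19.2 CPM, and Irf7 was not called either, with 26.9, 30.7 and 51.5 CPM against 22.1, 25 and 26 CPM.

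These calls rest on single libraries. Without RD female 8, 1 member (Ifi47, 1.23, adjusted p = 0.032) was called and the median was 0.77, with Igtp at 0.89 (adjusted p = 0.11), Gbp7 at 1.03 (adjusted p = 0.082) and Gbp3 at 0.92 (adjusted p = 0.14). Without RD male 4 the count was 1, without RD male 3 it was 2, without RD female 5 or 7 it was 10. With only these 6 libraries in the fit it was 4 (8.54% of all genes called), and Ifi47, Gbp7, Igtp and Gbp3 had adjusted p of 0.074 to 0.12. The 3 RD males also carried epididymal transcripts, with summed levels of 3540 to 5470 CPM for 5 epididymis markers beside at most 0.13 CPM in RD females, and their summed epithelial markers were 205 to 533 CPM beside 24.3 to 51.6 CPM. With all 3 libraries of the group affected, the sex and these transcripts cannot be told apart in this comparison.

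Of 94 other pathway genes tested, 38 were higher and 1, Isg20, was lower in the fat of RD females. Parp10 (0.93 ± 0.16, adjusted p = 0.0031), Irgm2, a GTPase (2.36 ± 0.49, adjusted p = 0.009), and Parp12 (0.86 ± 0.18, adjusted p = 0.0094) were among those with the smallest p. The macrophage list gave 1 of 6 and the T cell list 1 of 6 markers higher. Summed endothelial markers were 511 to 732 CPM in RD females and 175 to 709 CPM in RD males, with overlap. The part of these cells in the members' difference in fat was not tested.

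In the other 3 sex comparisons of fat no member was called by edgeR. On RD at 2 weeks none had an unadjusted p under 0.05 and the median was 0.17 (4.28% of all genes called), with Rsad2 at 0.65 ± 0.33 (adjusted p = 0.3) and Ifi47 at 0.73 ± 0.4 (adjusted p = 0.34). On HFD at 12 weeks none had an unadjusted p under 0.05 either and the median was 0.05 (2.85% of all genes called), with Ifi44 at 0.95 ± 0.51 (adjusted p = 0.44) and Gbp7 at 0.6 ± 0.38 (adjusted p = 0.54). DESeq2 called none in either, and on HFD at 12 weeks 3 of 6 macrophage markers were lower in females.

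On HFD at 2 weeks the median was 0.82, 35 of 36 values were positive and 18 had an unadjusted p under 0.05 (3.8% of all genes called), but no member was called by edgeR. DESeq2 called 9 members and 10.5% of all genes. Oas2 (2 ± 0.56, adjusted p = 0.051) and Oasl2 (1.67 ± 0.47, adjusted p = 0.052) stood just outside the threshold. Without HFD female 1 the median was 0.27 and none had an unadjusted p under 0.05, and without HFD female 2 or 5 the count was 6. No member passed the test of a change in the RD sex difference between cohorts (13 at an unadjusted p under 0.05, none by DESeq2, 0% of all genes called), with Trim30a at 1.08 ± 0.37 and Gbp7 at 1.57 ± 0.54 (both adjusted p = 0.52).

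Averaged over the 4 comparisons 17 of 36 members were higher in female fat and none lower, where 11.2% of all genes were higher and 13.3% lower. The median was 0.49 beside -0.009, and Ifi47 (1.08 ± 0.2, adjusted p = 0.00086), Ifi44 (1.35 ± 0.26, adjusted p = 0.00093), Oasl2 (1.11 ± 0.23, adjusted p = 0.0019) and Oas2 (1.26 ± 0.27, adjusted p = 0.0025) came first. The count was 10 without RD female 8 or HFD female 6 at 12 weeks, 11 without HFD male 3 or 4 at 12 weeks, and 4 without the 4 adipose libraries at 2 weeks that held epididymal or epithelial transcripts (RD males 6 and 8, HFD male 13 and HFD female 1), where 18.6% of all genes were called. The RD males at 12 weeks, which also held epididymal transcripts, stayed in these fits. The wider pathway gave 35 of 94 higher and 4 lower. Of the cell markers 3 of 4 for mesothelium were higher in females, and 2 of 5 for epididymis, 2 of 4 for neutrophils and 1 of 6 for macrophages were lower.

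In the fat of males at 12 weeks some members were higher on HFD than on RD, in a comparison with many calls over all genes. Here 9 of 36 were higher on HFD and none lower, where 13.2% of all genes were higher and 15% lower. The median was 0.7 beside -0.112 over all genes, and 34 of 36 values were positive. The Oas family gave 4 of 5 (Oas1a, Oas2, Oas3 and Oasl1), the PARP9 complex 2 of 3 (Parp9 and Parp14), and Trim30a, Cmpk2 and Dhx58, a regulator of RIG-I signalling, were the others. None of the 6 GTPases and none of the Ifit family passed.

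Parp9 was 53.7, 48.2 and 39.2 CPM on RD, and all 3 HFD males lay above that, at 98.8, 76.4 and 68 CPM (0.79 ± 0.2, adjusted p = 0.0083). Parp14 was 65.2, 33.6 and 23.7 CPM against 140, 108 and 93.8 CPM, without overlap (1.48 ± 0.39, adjusted p = 0.011). Trim30a was 26.4, 16.6 and 21.5 CPM against 46.9, 45.8 and 30.8 CPM, and Oas1a 5.87, 4.89 and 9.75 CPM against 25.5, 16.3 and 19.1 CPM (0.94 ± 0.26, adjusted p = 0.015, and 1.57 ± 0.48, adjusted p = 0.022). Again no RD male reached the lowest HFD male in either gene. Oas3 went from 1.99, 1.06 and 0.99 CPM to 8.76, 5.81 and 4.29 CPM (2.22 ± 0.78, adjusted p = 0.041), and Oas2 from 13.1, 6.78 and 6.39 CPM to 32.2, 22 and 24.6 CPM (1.59 ± 0.55, adjusted p = 0.04).

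Cmpk2 overlapped between the diets (12.5, 9.74 and 5.94 CPM against 25.7, 15.8 and 11.3 CPM) yet was called (0.9 ± 0.31, adjusted p = 0.04). Gbp2 (74.4, 57 and 48.6 CPM against 134, 118 and 82.9 CPM) was separated but not called. Isg15 (6.4, 5.26 and 19.2 CPM against 13.9, 6.52 and 5.51 CPM) and Irf7 (22.1, 25 and 26 CPM against 42.9, 25.2 and 17.9 CPM) overlapped and were not called.

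With 1 library left out the count ran from 2 to 14: it was 2 without HFD male 2 or RD male 3, 3 without RD male 4, 4 without HFD male 3 or 4, and 14 without RD male 2. The share of all genes called in these fits is not reported here. Trim30a lost its call without HFD male 2 or 3 or RD male 3 (adjusted p = 0.051 to 0.068), Oas1a without HFD male 2 or 4 or RD male 3 (adjusted p = 0.051 to 0.084), and Parp14 without RD male 4 (adjusted p = 0.059). The count was 5 with no filter on low counts (17.2% of all genes called). In a fit of only these 6 libraries with the library number as a block it was 10 (15% of all genes called) and Trim30a was not called (0.95, adjusted p = 0.058), while that fit without the block called 9, Trim30a among them (adjusted p = 0.044).

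Other pathway genes rose in 35 of 94 cases and 1, Isg20, fell. Irf8, a factor of the myeloid lineage (1.73 ± 0.22, adjusted p = 3.4e-05), Irf5, a factor of inflammatory macrophages (2.1 ± 0.29, adjusted p = 7.4e-05), Ifnar1, a chain of the type I receptor (0.68 ± 0.11, adjusted p = 0.00025), and Lgals3bp (1.38 ± 0.23, adjusted p = 0.00042) came first. Macrophage markers rose in 5 of 6, with summed levels of 2450 to 3380 CPM on HFD and 793 to 906 CPM on RD, and T cell markers rose in 2 of 6. Summed endothelial markers were 783 to 909 CPM on HFD and 175 to 709 CPM on RD, without overlap. All 5 epithelial markers fell, and the summed epididymis markers were 1.44 to 7.26 CPM on HFD and 3540 to 5470 CPM on RD. Diet and epididymal transcripts cannot be told apart in these libraries, and the part of macrophages or endothelium in the members' rise was not tested. Of 7 plasmacytoid dendritic cell markers 3 rose (Irf8, Tcf4 and Cox6a2) and 1, Siglech, fell (-1.61 ± 0.32, adjusted p = 0.002). The median was 0.46, with summed levels of 194 to 250 CPM on HFD and 116 to 161 CPM on RD. That list shares Bst2 with the members, and its Irf8 is the pathway gene already given above, so these are not separate observations.

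In the fat of females no member was called for the diet by edgeR. At 12 weeks 29 of 36 values were negative (median -0.24, 3 at an unadjusted p under 0.05, 2.08% of all genes called), with Igtp at -1.56 ± 0.49 (adjusted p = 0.12) and Ifi47 at -1.05 ± 0.4 (adjusted p = 0.22), and DESeq2 called 1 lower (5.47% of all genes). Without RD female 8 the median was 0.11. At 2 weeks 34 of 36 were positive (median 0.61, 18 at an unadjusted p under 0.05, 0.235% of all genes called), with Oas3 at 2.87 ± 0.8 and Oasl1 at 2.04 ± 0.57 (both adjusted p = 0.088), and DESeq2 called 2 (8.24% of all genes). Without HFD female 1 the median was 0.17 and none had an unadjusted p under 0.05, while 5 were called without HFD female 2 and 3 without HFD female 5.

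In males at 2 weeks no member was called in fat by edgeR or DESeq2 (median 0.05, 1 at an unadjusted p under 0.05, 0% of all genes called), with Ifit2 at 0.66 ± 0.28 (adjusted p = 0.41) and Rtp4 at 1.63 ± 0.84 (adjusted p = 0.47). The sex by diet interaction at 12 weeks had a median of -1.02 (female change minus male change) with 16 members at an unadjusted p under 0.05, but none was called by edgeR (1.25% of all genes) and 2 by DESeq2 (7.29% of all genes), with Ifi47 at -1.82 ± 0.57 (adjusted p = 0.11) and Igtp at -2.08 ± 0.69 (adjusted p = 0.13). Without RD female 8 that median was -0.67 with 1 member at an unadjusted p under 0.05, and without RD male 2 the count was 1. The 2-week interaction called none by either tool (4 at an unadjusted p under 0.05, 0% of all genes called), with Oasl1 at 1.94 ± 0.79 and Oas3 at 2.52 ± 1.07 (both adjusted p = 0.7).

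Averaged over the 4 comparisons 9 of 36 members were higher on HFD in fat and none lower, where 14.8% of all genes were higher and 13.4% lower. Of the 4 only that of males at 12 weeks had called members by edgeR, and the median in females at 12 weeks was -0.24. The RD males at 12 weeks, which held epididymal transcripts, were in this average and in the alternative given below. Parp9 (0.41 ± 0.1, adjusted p = 0.0056), Oasl1 (1.04 ± 0.28, adjusted p = 0.011), Oas2 (1 ± 0.27, adjusted p = 0.011) and Parp14 (0.69 ± 0.19, adjusted p = 0.013) had the smallest p. The count was 2 without the 4 adipose libraries at 2 weeks that held epididymal or epithelial transcripts (16.5% of all genes called), where Oas2 (0.59, adjusted p = 0.085) and Parp14 (0.5, adjusted p = 0.098) lost their calls. Macrophage markers were higher in 6 of 6, and 27 of the 94 other pathway genes were higher and 3 lower. No member was called for cohort in fat by edgeR or DESeq2 (median -0.06, 1 at an unadjusted p under 0.05, 4.67% of all genes called), with Oasl2 at -0.5 ± 0.23 (adjusted p = 0.23) and Gbp2 at 0.38 ± 0.19 (adjusted p = 0.27).

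The groups of fat not yet given show where the remaining libraries lay. Parp14 was 47.7, 63.3 and 61.2 CPM in RD females and 35.6, 82.1 and 66.7 CPM in RD males at 2 weeks, 172, 84.7 and 83.2 CPM in HFD females and 89.1, 70.7 and 80.5 CPM in HFD males, and 101, 114 and 104 CPM in HFD females at 12 weeks. The sexes overlapped on RD and on HFD at 2 weeks, and the HFD females at 12 weeks lay inside the range of the HFD males (93.8 to 140 CPM).

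Oasl2 was 38.9, 44.4 and 40.5 CPM in RD females and 17.1, 31 and 32.4 CPM in RD males at 2 weeks. At 12 weeks HFD females had 28.5, 47 and 28.5 CPM and HFD males 34.3, 26 and 20.8 CPM. Females lay above males in the first pair of groups and overlapped with them in the other. Igtp was 30.9, 28.8 and 29.4 CPM in RD females and 20.7, 27.5 and 18.6 CPM in RD males at 2 weeks, against 21.2, 40.4 and 21.3 CPM in HFD females and 29.7, 25.6 and 16.8 CPM in HFD males at 12 weeks, which gives the same order. Gbp2 was 108, 139 and 99.3 CPM in HFD females at 12 weeks, beside 134, 118 and 82.9 CPM in HFD males, and Isg15 was 8.02, 15 and 5.42 CPM beside 13.9, 6.52 and 5.51 CPM, both with overlap.

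**Figure D4:**
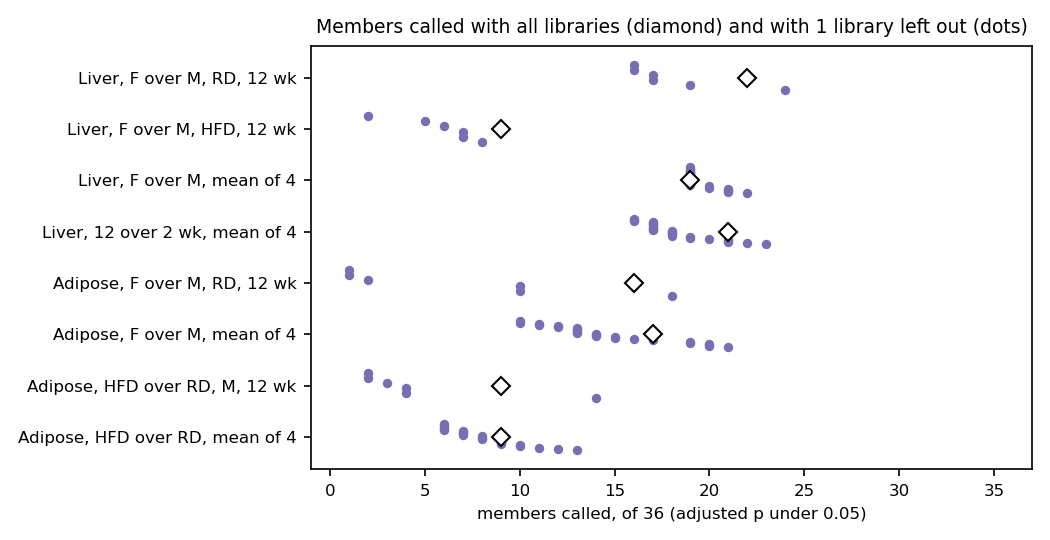
Number of members called, of 36 (horizontal axis), with all libraries (diamond) and with each library of the comparison left out in turn (dots). The mean liver sex difference stayed between 19 and 22, and the sex difference on RD in fat at 12 weeks ran from 1 to 18.

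The members that make up these levels were not the same in the libraries that stood apart. In the liver of RD female 8 at 12 weeks the 6 GTPases lay above the mean of the other RD females by a median of 1.94 on the log2 scale (1.45 to 2.7), the Oas family by 0.83 (0.03 to 1.06) and the Ifit family by 0.73 (0.58 to 0.95). Over all members 12 of 36 lay above by more than 1, as did 4.54% of all genes. In the fat library with the same number the GTPases lay above by a median of 1.77 (1.67 to 2.55), the Oas family by 1.26 and the Ifit family by 0.54, and 13 of 36 members lay above by more than 1, as did 5.59% of all genes.

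Zbp1, a sensor of Z-form nucleic acid, was the exception among the sensors, with 48.7 CPM in that liver beside 11.2 and 10.8 CPM and 33.1 CPM in that fat beside 8.94 and 11.6 CPM. Tgtp1, another GTPase, was 247 CPM in liver beside 12.6 and 11.1 CPM, and 136 CPM in fat beside 23.5 and 17.7 CPM. Ifng itself was at 0.13 CPM in that liver (0 and 0.0139 CPM in the others) and at 0.355 CPM in that fat (0.21 and 0.186 CPM), levels at which few reads decide the order.

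Summed markers of several immune cell types were also higher in RD female 8 than in the other RD females. In liver they were 8.95 CPM beside 3.94 and 3.76 CPM for NK cells, 82.6 beside 43 and 34.7 for B cells, 6.45 beside 4.68 and 3.89 for T cells, 369 beside 249 and 229 for macrophages, 549 beside 294 and 282 for Kupffer cells and 166 beside 103 and 124 for plasmacytoid dendritic cells. In fat they were 1200 CPM beside 836 and 676 CPM for macrophages, 22.4 beside 12.1 and 16.5 for T cells, 15.1 beside 8.5 and 7.2 for NK cells and 223 beside 169 and 184 for plasmacytoid dendritic cells. B cells in fat were not highest there (203 CPM beside 161 and 284 CPM), and endothelial markers were lowest there in liver (126 CPM beside 150 and 141 CPM) and highest in fat (732 CPM beside 612 and 511 CPM). The plasmacytoid dendritic cell list holds the member Bst2 and the pathway gene Irf8, so its sums are not separate from these genes. The part of these cells in the members' levels was not tested.

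HFD female 1 at 2 weeks had another order in fat. There the Oas family lay above the other HFD females by a median of 2.47 (1.98 to 3.71), the ISG15 pair by 1.62, the transcription factors by 1.29 and the Ifit family by 1.27, but the GTPases by 0.37 (-0.67 to 1.25). Oasl2 was 193 CPM beside 45.5 and 52.5 CPM, Oas2 193 CPM beside 35.3 and 34.1 CPM, and Irf7 123 CPM beside 37 and 37.7 CPM, while Igtp was 33 CPM beside 26.9 and 31.8 CPM and Gbp2 was 67.3 CPM beside 108 and 106 CPM.

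That library also differed in its tissue. Cdh1, the cadherin of epithelia, was 298 CPM beside 0.308 and 0.447 CPM, the 5 epithelial markers summed to 1100 CPM beside 54.4 and 45.1 CPM, and Adipoq was 880 CPM beside 2910 and 3160 CPM. Ifne, a type I interferon made by epithelium of the female reproductive tract, was 17 CPM there and at most 0.0371 CPM in the other fat libraries, and 0 in every liver library. The other type I interferons measured (Ifna1, Ifna2, Ifna4, Ifnb1 and Ifnk) were at most 0.0746 CPM in any fat library. Over all genes 18.4% lay more than 1 above the other HFD females, as did 21 of the 36 members. The part of Ifne or of the epithelial transcripts in the members' levels was not tested. The members' level in the liver library with the same number was 4.55, beside 4.2 and 4.45.

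**Figure D5:**
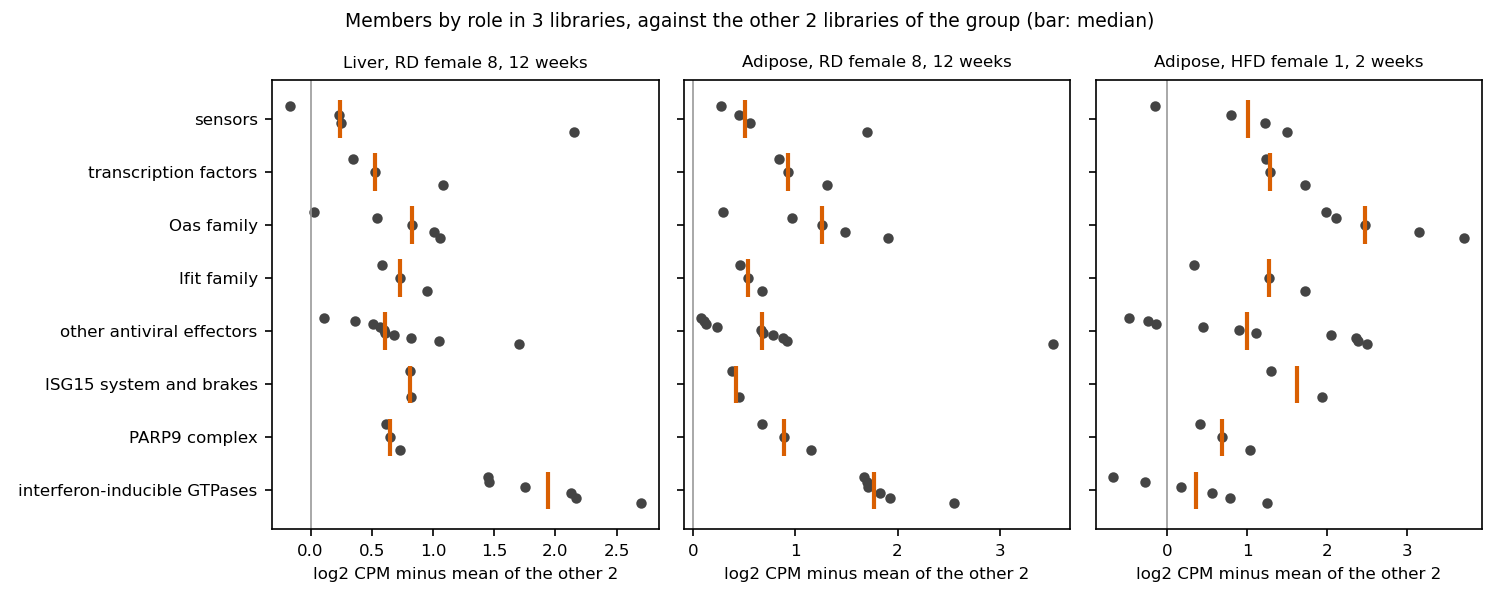
Members by role (rows) in 3 libraries, each point a member's log2 CPM minus the mean of the other 2 libraries of its group, with a bar at the median of the role. In RD female 8 the interferon-inducible GTPases lie farthest right in liver (1.94) and in fat (1.77), and in HFD female 1 the Oas family does (2.47).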

How the data were processed

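Messenger RNA from liver and visceral white adipose tissue was measured in 48 libraries, 16 groups of 3. The authors deposited 1 table of expected counts per gene symbol. Per the submitters' processing notes, kallisto, DESeq2, edgeR and the build GRCm38 were used, with no role or version stated, and the sources used here do not give how transcripts were summed to genes. Of the values, 36.6% are 0, and 0.094% of those above 0 are whole within 1e-06.

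The counts were then made whole by rounding, and a separate fit was run for liver and for fat (24 libraries, 8 groups each) with edgeR 4.0.16 in R 4.3.3: filterByExpr by group, TMM, glmQLFit with robust = TRUE and glmQLFTest. There were 14 contrasts per tissue, and called means a p under 0.05 after Benjamini-Hochberg adjustment over all genes of that contrast. Shares of all genes called use that adjusted p, also where members are counted at an unadjusted p. Such a share is then not the background of that count. Values after ± for log2 fold changes are approximate SEs, computed from the log2 value and the square root of F. Log2 CPM used a prior count of 2. Alternatives were DESeq2 1.42.0, median-of-ratios size factors, no filter, robust = FALSE, the compared groups alone, a replicate block, and libraries left out. DESeq2 gave 1 member no adjusted p in fat. The test was tried on simulated data.

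The members, lists, contrasts and the naming rule (per contrast up to 4 called members and up to 4 called pathway genes with the smallest p, or the 2 smallest-p members where none was called) were chosen with earlier results of these data known. Irf2, Socs3, Isg20, Myd88, Mavs, Tgtp1, Ifng, Ifne and members given for their family or as exceptions were named after their values were seen. The values of 1 other pathway gene are not reported here. Positions are from GENCODE M21 on GRCm38, lengths are unions of its exons, and promoter sequences are from RefSeq on GRCm38.p6. Promoters of 9 members were not analysed here.

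In the fat of males at 12 weeks libraries with the same number on RD and HFD deviated together weakly (r = 0.108, 0.134 and 0.154 across genes, which are not independent replicates). The main tests, those of that comparison included, did not pair libraries. The number entered only as a block in separate fits. The labels do not say what a number stands for.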

Additional observations from a re-analysis of the deposited data

Results flagged for a closer look

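Among 94 pathway genes tested in fat, 5 changed with the diet differently in females and males at 12 weeks, by the edgeR quasi-likelihood test of the sex by diet interaction. Over all 18325 genes tested 1.25% were called, and none of the 36 members was (16 at an unadjusted p under 0.05, 2 called by DESeq2). The value is the female HFD over RD log2 change minus the male one.

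Irf5, a transcription factor of inflammatory macrophages, differed by -1.74 ± 0.39 (adjusted p = 0.036). Its mean was 15.95 CPM ± 2.98 (SD, n = 3) in RD males and 68.58 CPM ± 25.94 in HFD males, beside 20.33 ± 7.98 and 26.24 ± 0.85 CPM in females. Lgals3bp, a secreted glycoprotein, differed by -1.37 ± 0.31 (adjusted p = 0.038), with 161.9 ± 48.92 and 420.9 ± 40.48 CPM in RD and HFD males and 286.7 ± 59.11 and 287.7 ± 13.09 CPM in RD and HFD females. Ikbke, a kinase that activates interferon regulatory factors, differed by -1.53 ± 0.36 (adjusted p = 0.041), with 10.53 ± 1.395 and 28.61 ± 4.986 CPM in RD and HFD males and 20.87 ± 6.278 and 19.69 ± 5.424 CPM in females. Tor3a, an interferon-responsive ATPase, differed by -0.91 ± 0.21 (adjusted p = 0.036), with 23.66 ± 3.006 and 43.23 ± 5.309 CPM in RD and HFD males and 34.5 ± 6.522 and 33.6 ± 2.293 CPM in females.

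Gbp6, a guanylate-binding protein, differed by -3.93 ± 0.93 (adjusted p = 0.044), with 5.36 ± 4.16 and 22.75 ± 10.1 CPM in RD and HFD males and 51.71 ± 51.76 and 14.36 ± 7.59 CPM in females. Its RD female value includes RD female 8, at 111 CPM beside 23.9 and 19.8 CPM. The RD males of these comparisons carried epididymal transcripts, and the HFD males had the highest summed macrophage markers of the 8 adipose groups (2450 to 3380 CPM). The part of either in these differences was not tested. How the values of these 5 genes change without RD female 8, with another library left out or by DESeq2 was not examined.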

How the results depend on the processing

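Rtp4 was low in liver (median 0.362 CPM, at most 2.69 CPM) and was listed at 0 in 3 libraries. Whether depth limits it was not tested. For the genes named in each comparison, 659 values under the alternatives kept their direction and call, 50 lost the call and none reversed. Median-of-ratios size factors kept all 28 counts of members within 1.5 times.

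DESeq2 moved 7 of 28 counts: to 5 and 5 for sex in liver at 2 weeks on RD and HFD, to 1 for the change of the liver sex difference on RD with cohort, and in fat to 2 and 1 for diet in females at 2 and 12 weeks, 9 for sex on HFD at 2 weeks and 2 for the interaction at 12 weeks. With no filter the count was 1 for sex in liver on RD at 2 weeks and 5 for diet in the fat of males at 12 weeks. With robust = FALSE it was 1 for sex in fat on HFD at 2 weeks. In fits of the compared groups alone it was 11 and 12 for sex in liver on RD at 2 and 12 weeks, and in fat 4 for sex on RD at 12 weeks and 1 for the interaction at 12 weeks. Without the 4 adipose libraries with epididymal or epithelial transcripts it was 4 for the mean sex difference and 2 for the mean diet difference. Without these and RD female 8, an alternative chosen after seeing the data, it was 4 and 7, with the share of all genes called not reported here. These alternatives kept the RD males at 12 weeks, which held epididymal transcripts.

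With the replicate number as a block in a fit of only the groups compared, the liver count for diet was 1 in females at 2 weeks (0.734% of all genes called) and 0 in males at 12 weeks, and in fat 0 and 10. Without the block these restricted fits gave 0 and 0 in liver and 0 and 9 in fat. The labels do not pair the 2-week females, whose shared numbers gave r of 0 and -0.049 in liver and 0.119 and -0.1 in fat, nor the liver males (-0.112, 0.05 and 0.127).

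With 1 library left out, the liver counts for sex ran from 0 to 3 (RD, 2 weeks), 1 to 3 (HFD, 2 weeks), 16 to 24 (RD, 12 weeks) and 2 to 8 (HFD, 12 weeks), from 19 to 22 for the mean sex difference, 0 to 1 for the mean diet difference and 16 to 23 for cohort. In fat they ran from 1 to 18 for sex on RD at 12 weeks, 0 to 6 for sex on HFD at 2 weeks, 2 to 14 for diet in males and 0 to 5 in females (12 and 2 weeks), 0 to 1 for the interaction at 12 weeks, 10 to 21 for the mean sex difference and 6 to 13 for the mean diet difference. The other counts were 0 throughout. The share of all genes called in these fits is not reported here, so shifts of the members and of all genes cannot be compared. The cause of the shifts was not tested.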
